A study of Mus musculus with 23 samples.

Results

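The genes Gna12, Gnai2, Gnao1 and Gnas, for alpha subunits of the heterotrimeric G proteins, and Gnb1, for a beta subunit, were described in injured mouse spinal cord. They were chosen by name, and the values used to choose them were their raw counts summed over all 6 groups. Of the 5 genes, 4 had a row in both deposited tables, out of 9480 genes with a row in either. Gnai2 had 22052 counts over the 23 libraries, Gna12 had 7323, Gnao1 had 2128 and Gnas had 99. Gnb1 (chromosome 4, 155491361 to 155559269, mm10) had no row in either table, so no level is given for it.

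A heterotrimeric G protein joins an alpha subunit, which binds GTP, to a beta-gamma pair, and it is switched on by a receptor that crosses the membrane. Alpha subunits decide much of what follows: Gs, encoded by Gnas, stimulates adenylyl cyclase and raises cyclic AMP, Gi, encoded in part by Gnai2, inhibits that enzyme, Go, encoded by Gnao1, is abundant in neurons and acts largely through its beta-gamma partner, and G12, encoded by Gna12, signals to the actin cytoskeleton. Gnai2 is known for high levels in immune cells, microglia included, and is also made in astrocytes. In glia these proteins carry signals of purines, glutamate, chemokines and lipids such as lysophosphatidic acid.

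All mice had a severe crush of the spinal cord at thoracic level 10, and the central 3 mm of the lesion was taken 14 days later. They carried mGFAP-Cre and RiboTag, in which Cre driven by a mouse Gfap promoter puts a hemagglutinin tag on ribosomes, and the genotype label of every library reads wild type. Each group is a treatment and a fraction: hydrogel with growth factors, injected 2 days after injury, hydrogel CT, injected at the same time, or spinal cord injury (SCI) only, with no depot. The HA fraction is the RNA precipitated through the tag and the FT fraction is the flow-through RNA that was not. The HA groups held 3, 3 and 4 libraries and the FT groups 5, 4 and 4, in the order growth factors, hydrogel CT, SCI only. Which growth factors these were was not settled here, since the title of the series gives FGF and EGF and the column names of the tables give BDNF and NT3. Cre under a Gfap promoter can also mark cells that descend from Gfap-expressing progenitors. Hydrogel libraries carry title numbers from 1645 to 1762 and SCI only libraries numbers from 9596 to 9935, so a difference from SCI only and a difference between these 2 sets of libraries cannot be told apart.

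Library totals in HA were 7940025 to 11279512 counts with growth factors, 10591097 to 12604450 with hydrogel CT and 18497909 to 24337017 with SCI only. Protein-coding counts (without Lars2, which collects reads of ribosomal RNA) ran otherwise, at 282677 to 1523515, 2844757 to 5799194 and 202250 to 780264 in the same order, and this gap in composition goes with every HA comparison of treatments. Library totals in FT were 19607 to 145365 in the hydrogel groups, against 2241603 to 5432938 with SCI only. Yam1, a locus that collects reads of ribosomal RNA too, held 87.8% to 93.1% of SCI only counts in HA and 89.69% to 93.07% in FT. With growth factors it held 67.52% to 75.67% in HA and 13.72% to 88.65% in FT. With hydrogel CT it held 40.01% to 57.52% and 28.19% to 67.85%. Protein-coding counts were 2251 to 115730 in FT of the hydrogel groups and 26899 to 255152 in FT with SCI only. Levels are given as counts per 1000000 counts of the library after TMM scaling (CPM), not of its raw total. On a common scale the summed level of 11 astrocyte markers was 4179 to 8616 CPM in HA and 247 to 2147 CPM in FT. Of 11 tested, 9 were higher in HA. Of 8 microglia and macrophage markers tested, 7 were lower in HA, as were 6 of 9 neuron markers, while 4 of 5 oligodendrocyte progenitor markers and 3 of 7 oligodendrocyte markers were higher in HA. HA is therefore called by its fraction below, not as astrocyte RNA alone.

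The 3' end of the coding sequence is shown for each alpha subunit row, because it encodes the tail that contacts receptors and that gives each alpha subunit much of its receptor choice. It also holds the site at which pertussis toxin modifies Gi and Go. Each line gives the last 45 coding bases before the stop codon, 5' to 3' on the coding strand (GENCODE M21, mm10), with the last 5 codons in capitals.
Gna12-201: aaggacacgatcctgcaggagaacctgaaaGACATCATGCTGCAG
Gnai2-201: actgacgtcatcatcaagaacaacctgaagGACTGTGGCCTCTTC
Gnao1-201: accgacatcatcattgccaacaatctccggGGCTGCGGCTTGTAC
Gnao1-207: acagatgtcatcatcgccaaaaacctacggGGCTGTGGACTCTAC
Gnas-202: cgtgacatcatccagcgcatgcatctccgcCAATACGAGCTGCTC
Over these 45 bases Gnao1-207 equals Gnao1-201 at 34 positions, Gnai2-201 at 30, Gnas-202 at 24 and Gna12-201 at 20. The Gnai2 and Gnao1-201 ends share 10 of the 15 bases in capitals, against 6 for Gnas and 6 for Gna12. Gnao1-203, the remaining row, has the same coding sequence as Gnao1-201.

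The rows differ in how much of the gene they can report. Gna12 (chromosome 5, 140758408 to 140830431) has 2 annotated transcripts, and 61.8% of the bases of its row, Gna12-201, lie in no other transcript. Gnai2 (chromosome 9, 107614125 to 107635367) has 10, and 11.2% of the bases of Gnai2-201 are its own. Gnas-202 is 1 of 24 annotated transcripts of Gnas (chromosome 2, 174284320 to 174346744). It starts at 174327768, ahead of the start at 174330006 of a shorter transcript that also encodes Gs alpha, and 33.1% of its bases are its own. The smallest total of a row was 10 counts for HA and 11 for FT. A missing row was common: of protein-coding genes with 7 to 9 annotated transcripts, as Gnb1 has, 50.9% were listed for HA and 27.1% for FT. How the authors assigned reads that fit several transcripts is not given in the sources used here, so the low counts of Gnas and the missing row of Gnb1 are counts of these rows, not levels of the genes.

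The limit on reads that fit several transcripts holds for every gene ranked here, so the order is one of listed rows. Per kb of transcript, Gnai2 had the highest median level of the 22 G protein subunits with a row in HA. This held in all libraries together and in each of the 3 treatments. Gnai2 had a median of 33.1 CPM per kb over the 10 HA libraries, with a range of 18.6 to 67.7. Gng3, a gamma subunit, came next at 14.5 CPM per kb (7.59 to 32.5), then Gna13, the other alpha subunit of the G12 class, at 7.5 CPM per kb (4.48 to 43.0). Gna12 followed at 7.21 CPM per kb (1.44 to 24.4), and its place differed by treatment: it ranked 8th with growth factors (median 1.93 CPM per kb), 5th with hydrogel CT (6.76) and 2nd with SCI only (15.9). Neighbours in the order over all libraries overlapped in range. Over all 10 libraries Gnao1 ranked 13th, with a median of 0.914 CPM per kb and a range of 0.0504 to 9.71. Gnas-202 ranked 20th at 0.0797 (0 to 0.351). In FT, where 15 subunits had a row, the order differed by treatment too. Gnai2 ranked 3rd with growth factors (median 12.9 CPM per kb), 1st with hydrogel CT (18.7) and 1st with SCI only (124). Gna12 ranked 5th with growth factors (9.58), 6th with hydrogel CT (9.48) and 3rd with SCI only (65.4). Gnao1 ranked 11th, 4th and 10th in the same order of groups, with medians of 4.03, 13.1 and 4.28 CPM per kb. Over the 13 FT libraries Gnai2 ranged from 0 to 151 CPM per kb and Gna12 from 6.22 to 69.8.

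**Figure D1:**
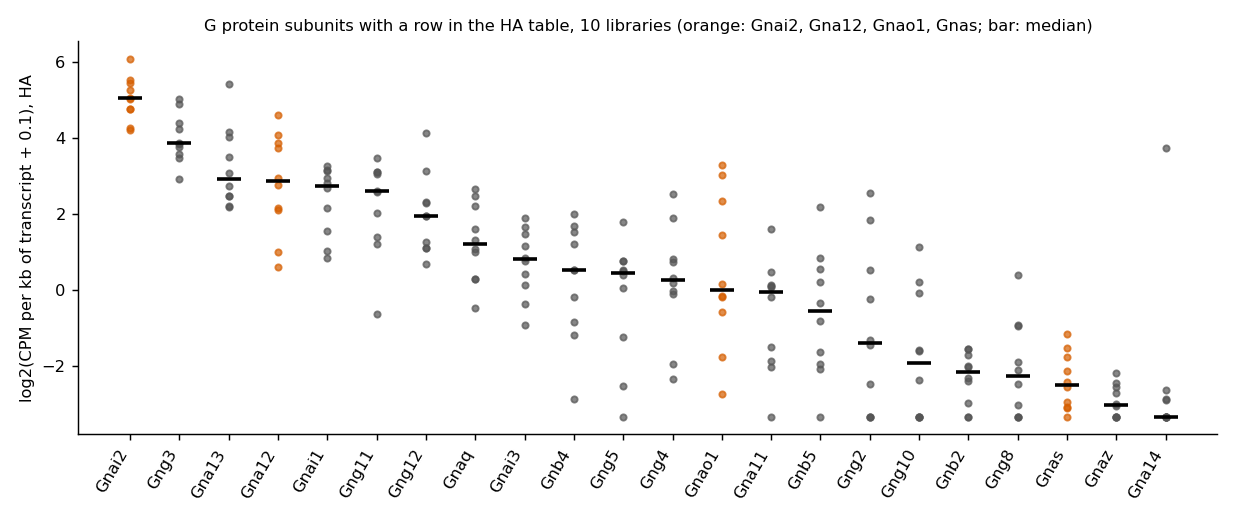
Level of the listed rows of each G protein subunit in the 10 HA libraries as log2 of CPM per kb of transcript plus 0.1, ordered by median. Points are libraries, bars are medians, and Gnai2, Gna12, Gnao1 and Gnas are in orange. Gnai2 lies highest with a median of 33.1 CPM per kb, and Gnao1 spreads from 0.0504 to 9.71 CPM per kb.

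The first comparison asked which subunit transcripts the precipitation enriched, over the 10 title numbers with both fractions. Gnai2 was higher in HA and Gna12 and Gnao1 did not pass the test. On the scale common to both fractions, Gnai2 stood at 67.6 to 240 CPM in HA with a median of 128, against 0 to 166 CPM in FT with a median of 30.8. HA was higher in 9 of 10 pairs, with SCI only number 9843 the exception (143.9 CPM in HA and 165.8 CPM in FT). The log2 difference was 1.58 (SE 0.408, edgeR adjusted p = 0.00447), and the median of all 3295 genes tested was 0.282. Of those genes, 20.6% were called, and of the 3 G protein genes tested 1 was. Microglia and macrophages also make Gnai2. The summed level of their 10 markers with a row was 17.1 to 841 CPM in HA and 90.3 to 7744 CPM in FT, so these markers went the other way. Their part in the Gnai2 difference was not tested.

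By treatment, the same pairs gave these values. With growth factors, HA stood at 112.3, 77.0 and 97.8 CPM for numbers 1685, 1687 and 1732, and FT at 18.2, 0 and 14.1 CPM. With hydrogel CT, HA stood at 67.6, 97.6 and 240.3 CPM for numbers 1724, 1759 and 1762, and FT at 25.6, 35.0 and 26.7 CPM. With SCI only the 4 HA libraries lay at 143.9 to 186.9 CPM and the 4 FT libraries at 112.4 to 165.8 CPM. HA and FT did not overlap in the hydrogel groups and did with SCI only, and the share of all genes without overlap was not counted. These FT values rest on 4, 0 and 21 counts with growth factors and on 7, 16 and 6 with hydrogel CT. HA minus FT was 2.96 (SE 0.683) with growth factors, 2.20 (SE 0.632) with hydrogel CT and 0.327 (SE 0.499) with SCI only, on the log2 scale. The test of treatment by fraction did not call this difference (unadjusted p = 0.00703 and adjusted p = 0.281 by edgeR). It called 0 of 3295 genes (0%) by edgeR, with 353 at an unadjusted p under 0.05, and 32 genes by DESeq2 and 7 with the title number as a replicate block, none of them a G protein gene studied here.

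Gna12 stood at 7.43 to 151 CPM in HA with a median of 43.8, against 15.4 to 122 CPM in FT with a median of 36.0. HA was higher in 5 of 10 pairs. The log2 difference was -0.00659 (SE 0.366, edgeR adjusted p = 0.992), and its sign turned under several settings. Gnao1 stood at 0.538 to 57.8 CPM in HA with a median of 6.58, against 0 to 66.9 CPM in FT with a median of 11.1. HA was higher in 6 of 10 pairs, and the log2 difference was -0.279 (SE 0.675, edgeR adjusted p = 0.817). Gnas did not reach the count minimum for this test. Its row stood at 0 to 2.22 CPM in HA and 0 to 5.55 CPM in FT. HA was higher in 4 of 10 pairs, all of them with hydrogel, and FT was higher in 4 of 4 pairs with SCI only. The SCI only values rest on 17, 4, 2 and 2 counts in FT and on 1, 5, 3 and 1 in HA.

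**Figure D2:**
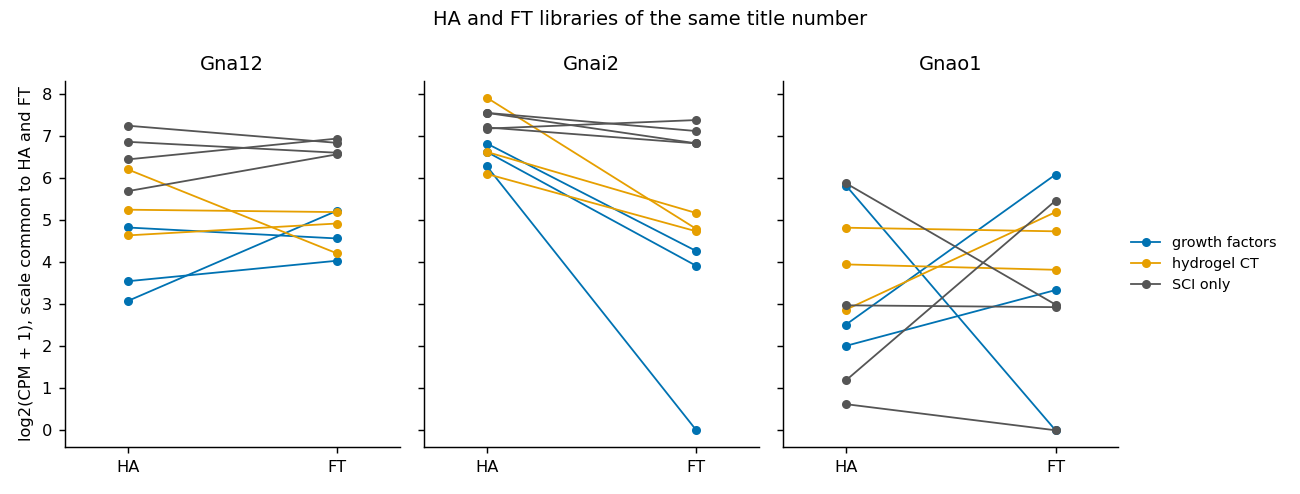
Gna12, Gnai2 and Gnao1 in HA and FT libraries of the same title number, as log2(CPM + 1) on a scale common to both fractions; each line is a title number, coloured by treatment. Gnai2 lines fall from HA to FT in 9 of 10 pairs, whereas Gna12 and Gnao1 lines run both ways.

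Other genes of the pathway were read from lists of 28 other subunits, 34 regulators, 21 genes of the cyclic AMP branch and 18 other effectors, of which 11, 6, 10 and 8 had a row in both tables. None of 10 other G protein subunits tested passed between HA and FT by edgeR, with 3 at an unadjusted p under 0.05 and 2 called by DESeq2. Their median log2 difference was -0.0327, against 0.282 for all genes. Of 4 regulators tested, 2 were lower in HA and none higher: Rgs10 at -4.34 (SE 0.827, edgeR adjusted p = 0.000185) and Rgs2 at -2.94 (SE 0.656, adjusted p = 0.00112). Both speed the hydrolysis of GTP on alpha subunits, and Rgs10 is known from microglia. Of 7 genes of the cyclic AMP branch, 1 was higher, the phosphodiesterase Pde4b at 1.52 (SE 0.521, edgeR adjusted p = 0.0349). Of 7 effectors of Gq, G12 and beta-gamma, 2 were higher: the phospholipase Plcb3 at 3.36 (SE 0.904, adjusted p = 0.0065) and the protein kinase Rock1 at 1.44 (SE 0.465, adjusted p = 0.0246). With 20.6% of all genes called, 1 of 7 and 2 of 7 lie near the share over all genes.

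The second set of comparisons asked how the treatments differed in FT. After TMM scaling, Gna12 and Gnai2 were lower with growth factors and with hydrogel CT than with SCI only. The hydrogel groups did not differ by test. Gna12 stood at 32.7, 57.0, 47.9, 23.8 and 27.3 CPM with growth factors (numbers 1645, 1685, 1687, 1729 and 1732). It stood at 23.1, 41.7, 21.2 and 53.8 CPM with hydrogel CT (numbers 1683, 1724, 1759 and 1762) and at 231.4, 193.8, 238.5 and 215.2 CPM with SCI only (numbers 9596, 9843, 9874 and 9935). All 9 hydrogel libraries lay below all 4 SCI only libraries, and the share of all genes without overlap was not counted. The means were 37.7 ± 14.2 CPM with growth factors (SD, n = 5), 34.9 ± 15.6 CPM with hydrogel CT (n = 4) and 220.0 ± 19.8 CPM with SCI only (n = 4).

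Gnai2 was also lower in both hydrogel groups than with SCI only. It stood at 65.5, 28.5, 0, 47.5 and 24.9 CPM with growth factors, at 69.2, 36.5, 42.5 and 40.3 CPM with hydrogel CT and at 213.5, 333.7, 290.2 and 258.2 CPM with SCI only. The hydrogel libraries again lay below every SCI only library, with the share of all genes without overlap not counted. The means were 33.3 ± 24.7 CPM (SD, n = 5) with growth factors, 47.1 ± 14.9 CPM (n = 4) with hydrogel CT and 274 ± 50.8 CPM (n = 4) with SCI only. In a bulk fraction, fewer cells of a type and less RNA per cell cannot be told apart.

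Growth factors against SCI only gave a log2 difference of -3.18 for Gnai2 (SE 0.654, edgeR adjusted p = 0.00654) and of -2.55 for Gna12 (SE 0.589, adjusted p = 0.0153). Both G protein genes tested were called, where 3.77% of the 610 genes tested were, 2 of them higher and 21 lower. The Gnai2 call held under each of the 15 other settings that tested it, and with only the groups compared neither gene reached the filter. The Gna12 call was lost without SCI only library 9596, 9843, 9874 or 9935 (adjusted p of 0.0594 to 0.0711), with DESeq2 size factors (0.0511) and with protein-coding counts as library size (0.0749). Hydrogel CT against SCI only gave -2.62 for Gna12 (SE 0.621, adjusted p = 0.0215) and -2.62 for Gnai2 (SE 0.663, adjusted p = 0.0278), where 3.28% of genes were called. These 2 calls were less firm. That of Gna12 was lost without any 1 of the 8 libraries compared (adjusted p of 0.0591 to 0.12), and that of Gnai2 without any 1 except hydrogel CT 1683 (0.0808 to 0.149, and 0.0478 without 1683). Growth factors against hydrogel CT gave 0.0691 for Gna12 (SE 0.647, adjusted p = 0.992) and -0.563 for Gnai2 (SE 0.699, adjusted p = 0.954), where 0% of genes were called by edgeR, 23 of 610 had an unadjusted p under 0.05 and DESeq2 called 0.

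The counts behind these values were small in the hydrogel groups. Gna12 had 1, 8, 3, 2 and 23 counts with growth factors and 1, 8, 8 and 8 with hydrogel CT, against 373, 97, 120 and 35 with SCI only. Gnai2 had 2, 4, 0, 4 and 21 counts and 3, 7, 16 and 6, against 344, 167, 146 and 42. Relative to protein-coding counts alone, Gna12 stood at 199 to 546 CPM with growth factors, 204 to 462 with hydrogel CT and 1035 to 1462 with SCI only. Gnai2 stood at 0 to 888, 319 to 706 and 1348 to 1782 on that scale. The hydrogel and SCI only libraries did not overlap on that scale either, where the share over all genes was not counted. Relative to raw library totals this order was not kept for Gna12. Hydrogel CT library 1762 had 8 of 28359 counts and growth factor library 1645 had 1 of 92717, against 373 of 5432938 in SCI only library 9596. The lower levels with hydrogel thus hold after TMM scaling or relative to protein-coding counts. Microglia and macrophage markers were lower in sum, though not each of them. Their summed level, over 10 of 12 markers that had a row, was 95.1 to 1865 CPM with growth factors and 138 to 3211 CPM with hydrogel CT, against 6236 to 15589 CPM with SCI only. Of 5 tested with growth factors against SCI only, C1qa, C1qb and Lyz2 were lower and Cx3cr1 was higher. With hydrogel CT against SCI only C1qa alone was called, as lower, and Cx3cr1 stood at 2.98 (edgeR adjusted p = 0.0795). The part of these markers in the Gna12 and Gnai2 differences was not tested.

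In the authors' deposited table, whose tests run over transcript rows, Gnai2-201 stood at -3.35 (false discovery rate 1.56e-06) and Gna12-201 at -2.70 (0.000151) in FT with growth factors over SCI only. In the authors' deposited table the values for hydrogel CT over SCI only were -2.51 (0.00122) and -2.48 (0.0022). That table called 9.08% and 8.2% of its 5001 rows in these comparisons, and 0% for hydrogel CT over growth factors.

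Gnao1 and Gnas were too sparse in FT for the count minimum. Gnao1 stood at 0, 14.3, 0, 11.9 and 118.6 CPM with growth factors, at 46.1, 36.5, 15.9 and 53.8 CPM with hydrogel CT and at 81.9, 14.0, 13.9 and 0 CPM with SCI only. The 3 groups overlapped, and growth factor library 1732 held 100 of the 103 Gnao1 counts of its group, and 115730 of its 148993 protein-coding counts. The Gnas row had 0, 0, 0, 0 and 5 counts with growth factors, 0 in each of 4 hydrogel CT libraries and 17, 4, 2 and 2 with SCI only. The hydrogel CT group summed to 82684 protein-coding counts, so its count of 0 allows up to 36.3 CPM of protein-coding counts. SCI only, summed likewise, stood at 53.0 CPM on that scale. By library SCI only ran from 20.8 CPM (9874), which is under that limit, to 74.4 CPM (9935). Such limits and intervals cover counting error only.

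**Figure D3:**
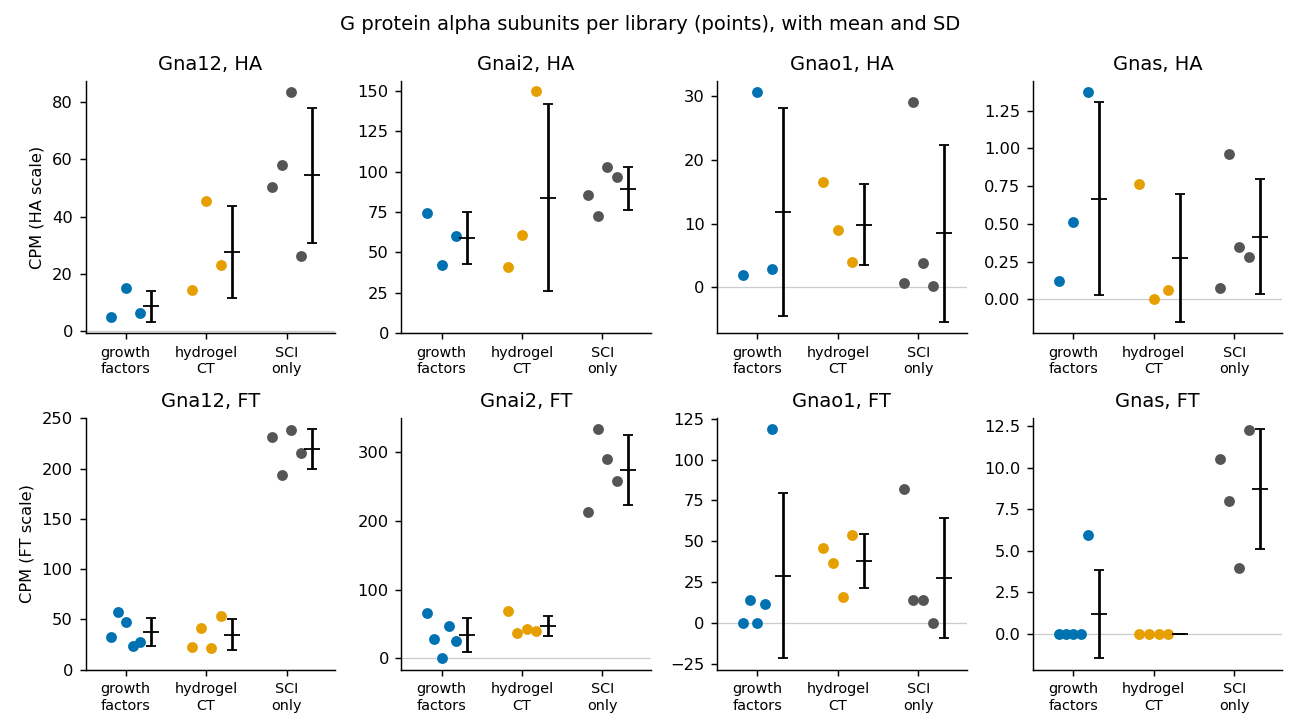
CPM of Gna12, Gnai2, Gnao1 and Gnas in each library (points) by treatment, in HA (top) and FT (bottom), with mean and SD (black); HA and FT were scaled separately. In FT the 9 hydrogel libraries lie at 21.2 to 57.0 CPM for Gna12, below 193.8 to 238.5 CPM with SCI only, and in HA the mean of Gna12 is lowest with growth factors, at 8.85 CPM.

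In HA the same comparisons called none of the 3 genes tested. Gna12 came nearest. It stood at 4.92, 15.0 and 6.60 CPM with growth factors (numbers 1685, 1687 and 1732), at 14.5, 45.4 and 23.1 CPM with hydrogel CT (numbers 1724, 1759 and 1762) and at 50.3, 58.1, 83.2 and 26.2 CPM with SCI only (numbers 9596, 9843, 9874 and 9935). Growth factor and SCI only libraries did not overlap, and hydrogel CT overlapped both. The share of all genes without overlap was not counted. The means were 8.85 ± 5.41 CPM with growth factors (SD, n = 3), 27.7 ± 15.9 CPM with hydrogel CT (n = 3) and 54.5 ± 23.5 CPM with SCI only (n = 4). Growth factors against SCI only gave a log2 difference of -2.64 (SE 0.687, unadjusted p = 0.00122 and adjusted p = 0.0818 by edgeR), where 0.436% of 6654 genes were called. DESeq2 called it (adjusted p = 0.00482), as did edgeR without growth factor library 1687 (0.0436). Over all 14 settings the adjusted p ran from 0.00482 to 0.197 and the difference from -3.19 to -2.36. In the authors' deposited table Gna12-201 stood at -2.61 with a false discovery rate of 0.0252, and that table called 3.97% of its 10389 rows in this comparison. Markers of cell types were read beside it. Of 10 microglia and macrophage markers tested in this HA comparison 7 were negative, with a median log2 difference of -1.66, against 0.125 for all genes. None was called by edgeR, 3 had an unadjusted p under 0.05 and DESeq2 called 2. The 3 were Laptm5 at -4.99 and Lyz2 at -1.8, which were lower, and Cx3cr1 at 4.05, which was higher. The summed level of the 10 markers was 80.5 to 82.9 CPM with growth factors and 53.2 to 464 CPM with SCI only. Of 12 astrocyte markers 11 were positive, with a median of 0.654, and 0 were called by edgeR, 4 had an unadjusted p under 0.05 and DESeq2 called 2. The part of either in the Gna12 difference was not tested.

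The remaining Gna12 comparisons in HA also missed the threshold. Growth factors against hydrogel CT gave -1.66 (SE 0.685, adjusted p = 0.309 by edgeR, where 0.0902% of genes were called), and hydrogel CT against SCI only gave -0.978 (SE 0.636, adjusted p = 0.538, where 0.195% were called). The authors' deposited table called 0.597% of rows for hydrogel CT over growth factors and 1.44% for hydrogel CT over SCI only. Gna12-201 was not among them, with false discovery rates of 0.181 and 0.562. The Gna12 differences between growth factors and SCI only in HA (-2.64) and FT (-2.55) come from separate fits and were not tested against each other. The test of treatment by fraction took all 3 treatments at once in the 20 paired libraries, and gave an adjusted p = 0.771 by edgeR. There HA minus FT was -0.671 (SE 0.69) with growth factors, 0.73 (SE 0.666) with hydrogel CT and -0.079 (SE 0.535) with SCI only.

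Gnai2 in HA stood at 74.5, 42.3 and 60.4 CPM with growth factors, at 41.1, 60.7 and 149.9 CPM with hydrogel CT and at 85.7, 72.4, 103.1 and 96.6 CPM with SCI only. The groups overlapped. The log2 difference was -0.598 (SE 0.524, edgeR adjusted p = 0.538) for growth factors against SCI only, -0.0922 (SE 0.517, adjusted p = 0.96) for hydrogel CT against SCI only and -0.506 (SE 0.553, adjusted p = 0.715) for growth factors against hydrogel CT. Hydrogel CT library 1762 was the highest of all, and without it the last of these differences was 0.212 (edgeR adjusted p = 0.93). The Gnas row held 2, 2 and 16 counts with growth factors, 34, 0 and 5 with hydrogel CT and 1, 5, 3 and 1 with SCI only.

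**Figure D4:**
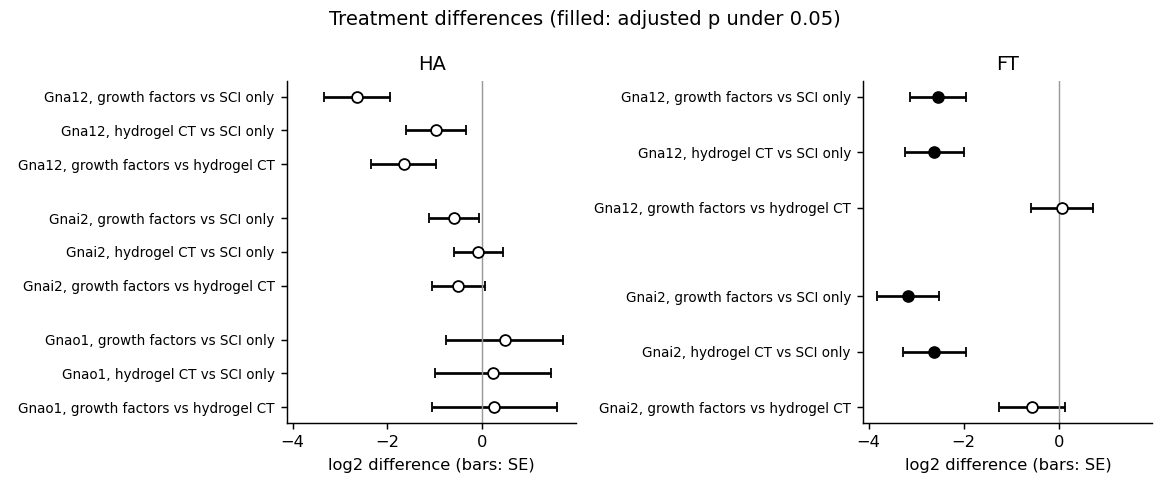
Log2 differences between treatments for the G protein genes tested in HA (left) and FT (right), with bars for the SE and filled points for an adjusted p under 0.05. In FT both genes lie between -3.18 and -2.55 against SCI only, and in HA no point is filled, with Gna12 at -2.64 the farthest from 0.

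Of the other G protein subunits, edgeR called none of 14 tested in HA and none of 4 tested in FT in any treatment comparison. In FT 11 of them had a row, and the rest of these did not reach the count minimum. Untested Gng3 lay at 0 to 40.3 CPM with hydrogel CT and 7.13 to 313 CPM with growth factors, against 99.4 to 264 CPM with SCI only. Untested Gng2 had means of 35.7, 100 and 26.6 CPM in that order, but medians of 29.8, 31.9 and 26.3 CPM. Its groups overlapped, and the growth factor libraries ran from 11.9 to 295 CPM. In growth factors against SCI only in HA, 3 of the 14 had an unadjusted p under 0.05 and DESeq2 called 1, and their median log2 difference was 0.0584, against 0.125 for all genes. In the other 5 treatment comparisons none of them had an unadjusted p under 0.05 and DESeq2 called none. No regulator (10 tested in HA and 2 in FT), no gene of the cyclic AMP branch (12 and 0) and no effector of Gq, G12 and beta-gamma (9 and 2) was called by edgeR in a treatment comparison. At most 2 regulators, 1 gene of the cyclic AMP branch and 4 effectors had an unadjusted p under 0.05 in any 1 of them, and DESeq2 called at most 1, 0 and 3.

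Gnao1 varied widely within groups in HA. It stood at 2.01, 30.6 and 2.91 CPM with growth factors, at 16.6, 8.96 and 3.94 CPM with hydrogel CT and at 0.747, 29.1, 3.78 and 0.278 CPM with SCI only. A library near 30 CPM stood beside libraries under 4 CPM within both the growth factor and the SCI only groups. The log2 differences were 0.469 (SE 1.23, edgeR adjusted p = 0.866) for growth factors against SCI only, 0.218 (SE 1.22, adjusted p = 0.96) for hydrogel CT against SCI only and 0.251 (SE 1.31, adjusted p = 0.954) for growth factors against hydrogel CT. Each of the 3 signs turned under other settings.

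Its 3 rows hold alternatively spliced forms. Gnao1 (chromosome 8, 93809966 to 93969388) is known for forms that differ in the C-terminal part, and Gnao1-207 shares the first 737 of its 1062 coding bases with Gnao1-201 before the sequences part, as in the ends shown above. Gnao1-207 has 4110 bases that lie in no other transcript, whereas Gnao1-203 has none, so reads of 201 and 203 are harder to tell apart than reads of 207. The Gnao1-207 share of Gnao1 counts in HA was 11.2% with growth factors (21 of 187 counts), 12.6% with hydrogel CT (185 of 1474) and 26.2% with SCI only (51 of 195). By library it ranged from 0.833% to 30.3% with growth factors, from 5.56% to 35.8% with hydrogel CT and from 13.9% to 100% with SCI only. Within SCI only it was 13.9% of 151 counts in library 9843 (exact Clopper-Pearson 95% interval 8.82 to 20.5) and 75.8% of 33 counts in library 9874 (57.7 to 88.9). The groups overlapped, and the share differed more between these 2 libraries of a group than between the groups. Gnao1-207 has no row in the FT table.

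**Figure D5:**
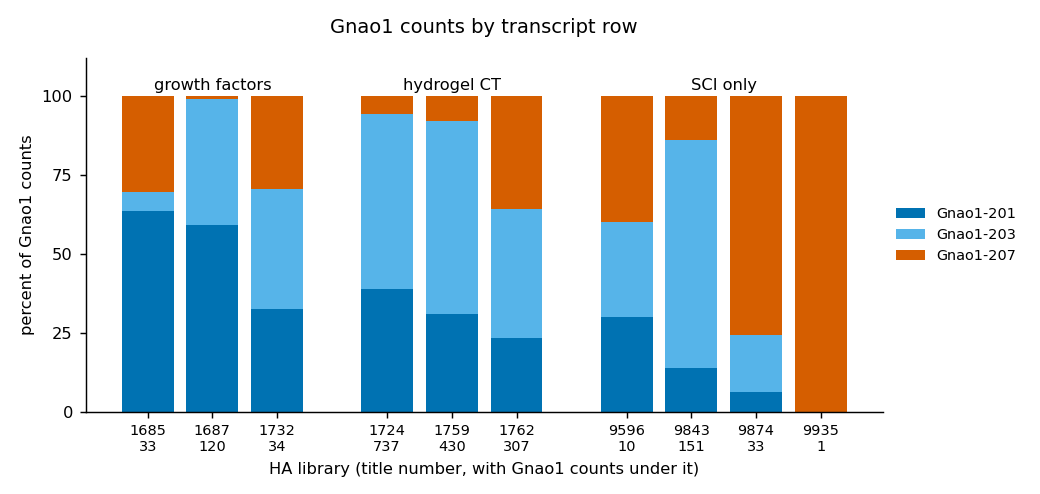
Share of Gnao1 counts in each of its 3 transcript rows for each HA library, with the number of Gnao1 counts under the title number. The share of Gnao1-207 runs from 0.833% to 100%, and the libraries at its ends hold 120 counts and 1 count.

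Across the 10 HA libraries, Pearson correlations of log2 CPM between the 3 genes were 0.349 for Gna12 with Gnai2, 0.0507 for Gna12 with Gnao1 and -0.567 for Gnai2 with Gnao1. These libraries share their groups and differ in depth, so the values describe these libraries. Among 1362 other genes with a mean of at least 10 CPM, those most like Gna12 were Gltp (r = 0.908), a glycolipid transfer protein, and Susd6 (0.855). Gm2a (0.839), which helps to degrade a ganglioside in lysosomes, was among the 2 most like Gnai2. Those most like Gnao1, among 1363, were Tmed9 (0.843), a cargo receptor of the early secretory pathway, and Ccnd2 (0.83), a cyclin. All these values were picked as the highest from that many candidates over 10 libraries, and none was tested.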

How the data were processed

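Per the submitters' processing notes, the tools and build were CASAVA 1.8.2, edgeR and mm10. How reads were aligned, counted and assigned to a strand is not known here, so overlapping genes and transcripts could not be told apart. The authors deposited whole-number counts per Ensembl transcript from amplified cDNA and, per the file headers, log2 fold changes, p-values and false discovery rates. Another 45 columns of single samples were not used. Rows that name no gene (136 for HA, 35 for FT) held at most 0.319% of a library and were left out. Nothing in the labels ties each number to its own animal, so p-values cover only the spread between libraries, which may be technical.

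Counts were summed by gene symbol. edgeR 4.0.16 (R 4.3.3) gave two-sided quasi-likelihood tests with TMM scaling, filterByExpr (minimum count 10) and Benjamini-Hochberg adjustment over all genes tested, called at 0.05. The 3 treatments of a fraction shared a fit. HA and FT were compared over 20 libraries of 10 title numbers, with treatment as a term and fraction as the filter's group, on genes of both tables. CPM is relative to the TMM-scaled library, on HA, FT and common scales. Likeness between genes is Pearson's r of log2 CPM with a prior count of 2. Positions and coding sequence come from GENCODE M21.

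Title numbers were read as pairs because the study's text takes both fractions from the same tissue. Deviations of same-numbered libraries from group means correlated at 0.0086 to 0.104, with 2 of 10 above 0.1. Within groups the chi-square per degree of freedom was 4.59 to 248 for every pair of libraries, so none repeated another. The edgeR steps were also run on simulated counts with the same composition in every group. These libraries differ in composition, which that run does not cover.

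Alternatives were DESeq2 1.42.0, its size factors in edgeR, no filter, removal of 6 loci of ribosomal RNA reads, the row with the most counts, only the groups compared, a replicate block, and leaving out each library. Protein-coding counts as library size, only rows listed in both tables, and a filter by the 6 groups (the fit run first) were added after seeing the data. Of the genes studied all were named, and of other lists those called. The members and lists were chosen with earlier results of these data known. For Gnai2, 1 of the 2 genes most like it is not reported here.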

Additional observations from a re-analysis of the deposited data

Results flagged for a closer look

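Of 16 combinations of a gene and a group of 4 or more libraries, 4 held a library far from the others by Dixon's criterion, which chance gives in about 1 in 20 groups. Gnao1 stood at 29.1 CPM in HA library 9843 of SCI only, where the next was 3.78 CPM. In FT it stood at 119 CPM in growth factor library 1732, next to 14.3 CPM, and at 81.9 CPM in SCI only library 9596, next to 14.0 CPM. The Gnas row stood at 5.93 CPM in FT growth factor library 1732, where the other 4 libraries were at 0, so that any count above 0 in 1 library meets the criterion. The rate of 1 in 20 is for normally distributed values and does not carry over to counts this sparse. FT library 1732 had 115730 protein-coding counts, the most of its group, and library 9596 had 255152, the most of FT. Their part in these values was not tested.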

How the results depend on the processing

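Counts of genes called moved with the settings as follows. In HA, growth factors against hydrogel CT called 6 genes, 292 with DESeq2, and 0 with DESeq2 size factors, without loci of ribosomal RNA reads, with only the groups compared or with protein-coding counts as library size. Hydrogel CT against SCI only called 13, and 248 with DESeq2, 8 without those loci, 113 with only the groups compared and 2 with protein-coding counts. Growth factors against SCI only called 29, and 69 with no filter, 714 with DESeq2, 66 without the loci, 5 with only the groups compared and 11 with protein-coding counts. In FT, hydrogel CT against SCI only called 20, and 6 with DESeq2 size factors, 149 with no filter, 57 with DESeq2, 33 without the loci and 209 with only the groups compared. Growth factors against SCI only called 23, and 6 with DESeq2 size factors, 174 with no filter, 79 with DESeq2 and 12 with protein-coding counts. The test of treatment by fraction called 0, and 32 with DESeq2 and 7 with the replicate block. HA against FT called 678, and 535 to 916 over 19 alternatives. With the replicate block it called 673, of which 600 were shared, and Gnai2 stood at 1.51 (adjusted p = 0.00724). The replicate block changed no other call of the genes studied.

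Leaving out 1 library gave 0 to 13, 3 to 15 and 2 to 127 calls in the 3 HA comparisons in the order above, 4 to 17 and 9 to 26 in the FT comparisons in that order, and 0 to 1 for treatment by fraction.

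Gnai2 was called in HA against FT in all 19 alternatives (1.03 to 1.87, adjusted p of 0.000291 to 0.0394) and in FT with growth factors against SCI only in all 15 that tested it (adjusted p of 1.75e-05 to 0.0424). Gna12 in HA with growth factors against SCI only was -2.64 and called with DESeq2 (adjusted p = 0.00482), and ran from -3.19 to -2.36 with a library left out. In FT with growth factors against SCI only Gna12 lost its call with DESeq2 size factors (-2.11, adjusted p = 0.0511) and protein-coding counts (-1.88, adjusted p = 0.0749), and ran from -2.68 to -2.29 with a library left out. It did not reach the filter without growth factor library 1685 or 1732, nor did Gna12 or Gnai2 with only the groups compared. With hydrogel CT against SCI only, Gna12 lost its call with DESeq2 size factors (-2.32, adjusted p = 0.0522), no filter (-2.48, adjusted p = 0.0821) and protein-coding counts (-1.96, adjusted p = 0.0561). Gnai2 lost its call with DESeq2 size factors (-2.30, adjusted p = 0.0614), no filter (-2.51, adjusted p = 0.0768), without the loci (-1.97, adjusted p = 0.0566) and with protein-coding counts (-1.91, adjusted p = 0.0817). Leaving out a library gave -2.85 to -2.48 for Gna12 and -2.76 to -2.48 for Gnai2. The cause of each loss was not tested, and fits with a library left out also hold fewer libraries. DESeq2 size factors and protein-coding counts moved the median of all FT genes against SCI only to 0.454 and 0.296 with growth factors, where it had been 0.00955. Relative to the median, Gna12 there stood at -2.56, and -2.57 and -2.18 under these scalings, and Gnai2 at -3.19, -3.14 and -2.81.

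Signs of differences that were not called turned as follows. Gna12 in HA against FT was 0.256 with no filter, 0.0309 without the loci, 0.253 with the filter by 6 groups, and -0.296 to 0.221 with a pair left out. Gnao1 there was -1.18 to 0.252 with a pair left out. Gnao1 in HA was -0.304 with growth factors against hydrogel CT by the row with the most counts. With hydrogel CT against SCI only it was -0.054 with DESeq2 size factors, -0.0564 with DESeq2, -0.013 by that row and -0.154 with protein-coding counts. With growth factors against SCI only it was -0.317 by that row and -0.0688 with protein-coding counts. With a library left out these 3 ran from -2.00 to 0.83, from -0.347 to 2.57 and from -1.72 to 2.84. Gnai2 in HA was 0.0501 with hydrogel CT against SCI only with no filter, and ran from -0.797 to 0.275 with a library left out, and from -0.855 to 0.212 with growth factors against hydrogel CT. Gna12 in FT with growth factors against hydrogel CT was -0.214 with no filter and ran from -0.175 to 0.406. Depth limits FT of the hydrogel groups most, where the 2 tested genes had 0 to 23 counts a library.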
